A study of Mus musculus with 18 samples.

Results

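The protein part of the cytosolic ribosome was followed in the mouse ileum from suckling to after weaning. Genes were taken by symbol: Rpl or Rps followed by a number, together with Rplp0, Rplp1, Rplp2 and Rpsa, without the Rps6k kinases, from probe sets annotated to a single gene. This gave 51 genes of 18193 on the array, represented by 107 probe sets, and each gene was described by its probe set with the highest mean over 18 arrays. A further 110 probe sets carried such a name beside other symbols and were left out, Rplp1 among them. The genes were taken by symbol and not by their levels, although the list was set with earlier results of these data known.

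The tissue was ileum of C57BL/6 mice with all layers of the wall, so muscle, immune and stromal cells were measured with the epithelium. Each array held RNA of 1 mouse, with 3 mice at each of 6 ages: days 24 and 32 after weaning (6 arrays) and days 4, 7, 9 and 11 during suckling (12 arrays). No group carried a mutation or received an agent, and sex was not given in the labels. Values are the authors' log2 expression levels, on which a difference of 1 is a doubling. They report the share of a transcript in the hybridized RNA, so fewer cells of a type and less RNA per cell cannot be told apart.

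The cytosolic ribosome carries its proteins in a small subunit, which reads the mRNA, and a large subunit, which joins the amino acids. The Rps proteins belong to the small subunit and the Rpl proteins to the large one, and the acidic P proteins form the stalk of the large subunit that recruits elongation factors. In mammals the transcripts of these genes begin with a run of pyrimidines, the terminal oligopyrimidine tract, through which mTOR signalling sets how strongly they are translated. In the intestine, ribosome production is greatest in dividing crypt cells, and the crypts of the mouse form and multiply in the weeks around weaning.

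Windows at the annotated start are shown for 8 genes described below. Annotated starts in RefSeq (GRCm38.p6) were matched by gene ID for 44 of the 51 genes, and windows of 30 bases were read from 10 bases before the annotated start onwards. They are shown because the pyrimidine run is the sequence element shared by this family, with CTTTC in capitals where it occurs. The first 6 windows hold it and the last 2 do not. CTTTC is only 1 form of such a run: the window of Rpl14 holds a run of pyrimidines without it. The 8 windows do not link CTTTC to the direction of change. Rpl27a, which holds it, was higher after weaning. The windows of Rps19, Rps15, Rps28, Rps18, Rpl37a and Rpl11, which were lower, do not hold it and are not shown.
Rpl38, chr11:114668570-114668599, plus strand: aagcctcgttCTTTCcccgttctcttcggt
Rplp2, chr7:141447641-141447670, plus strand: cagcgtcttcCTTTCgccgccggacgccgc
Rps10, chr17:27635225-27635254, minus strand: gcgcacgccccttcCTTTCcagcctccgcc
Rpl13a, chr7:45128726-45128755, minus strand: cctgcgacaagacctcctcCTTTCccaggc
Rps26, chr10:128626487-128626516, minus strand: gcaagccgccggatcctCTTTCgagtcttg
Rpl27a, chr7:109519185-109519214, plus strand: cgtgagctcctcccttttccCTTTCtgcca
Rpl14, chr9:120571507-120571536, plus strand: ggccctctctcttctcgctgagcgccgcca
Rps27l, chr9:66946076-66946105, plus strand: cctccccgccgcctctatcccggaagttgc

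CTTTC stood on the transcribed strand between 20 bases before and 50 bases from the annotated start in 18 of the 38 core genes with a start (47.4%), against 1648 of 17492 protein-coding genes (9.42%). The letters CCGGAAG, searched on both strands from 250 bases before to 50 bases from the start, were in 19 of the 38 core genes (50.0%), against 12.9% of protein-coding genes. The TATA letters TATAAA, searched on the transcribed strand between 40 and 10 bases before the start, were in 0 of the 38 and in 3.15% of protein-coding genes. The E-box letters CACGTG, searched on both strands over the whole window, were in 4 of the 38 (10.5%), against 8.91%. Among the 24 core genes with a start whose level was lower after weaning, 12 held CTTTC and 12 held CCGGAAG (50.0% each). These matches describe letters in a window and are not binding sites. Upstream windows with CCGGAAG in capitals are shown for a gene of each subunit, covering the 60 bases before the start.
Rpl38, chr11:114668520-114668579, plus strand: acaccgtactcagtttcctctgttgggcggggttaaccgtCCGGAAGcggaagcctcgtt
Rps10, chr17:27635245-27635304, minus strand: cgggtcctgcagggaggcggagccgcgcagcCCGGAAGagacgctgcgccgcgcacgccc

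Of the markers of the labelled tissue, the log2 of the summed level of 10 epithelial markers was 15.28 to 15.54 after weaning and 14.63 to 14.84 before. The 10 did not all move together: 7 were higher after weaning and 2 lower (Epcam -0.22, Cdx2 -0.30) in limma at an adjusted p below 0.05. The ileal bile acid carriers averaged 13.07 (Fabp6) and 7.49 (Slc10a2) after weaning and 7.03 and 2.15 before, so that in suckling mice Slc10a2 lay below the array medians (3.88 to 3.97) and did not mark the ileum there. Marker levels of several other cell types moved with stage, given as the log2 of the summed level. For 6 B and plasma cell markers it was 10.00 to 13.58 after weaning and 6.44 to 6.85 before, for 3 Paneth markers 14.02 to 14.30 after and 9.30 to 11.06 before, and for 4 goblet markers 14.44 to 14.93 after and 13.07 to 13.42 before. The 3 adipocyte markers gave 10.07 to 11.63 after and 5.37 to 9.49 before, and the 6 T cell markers 6.99 to 9.72 after and 6.49 to 6.76 before. The sum of fibroblast markers was lower after weaning (12.10 to 12.84 after, 13.19 to 13.83 before). So was that of 4 macrophage markers (8.68 to 9.22 after, 11.39 to 11.57 before), which did not move together. Csf1r (-2.90) and Cd68 (-1.24) fell, Cd14 rose (2.38) and Adgre1 was not tested. The 11 markers of proliferating cells gave 11.82 to 12.19 after and 11.64 to 12.02 before. Of the 10 tested, 4 were higher after weaning (Top2a 0.70, Ccnb2 1.07, Cdk1 0.62, Aurkb 1.07) and 2 lower (Mcm2 -0.37, Mcm6 -0.42) in limma at an adjusted p below 0.05. Control probe sets also moved with stage. Those for 18S ribosomal RNA, which the oligo-dT priming should not copy, read 10.26 to 10.85 at day 24 and 7.01 to 7.96 at day 32, against 4.93 to 8.19 before weaning, and the added poly-A controls 5.30 to 6.86 after and 3.68 to 4.76 before. The added hybridization controls split the arrays into a higher group, with all 6 arrays after weaning and 4 before, and a lower group of 8 arrays before. The 4 were day 4 replicates 1 and 2, day 7 replicate 3 and day 11 replicate 1. The higher group thus had no day 9 array, and its earlier stage was the mean of days 4, 7 and 11. The 18S controls of all 3 day 24 arrays thus lay above those of every other age. Day 11 replicate 1 stood apart from its age on the 18S controls (8.19). The part of these differences in the results was not tested, and values within the higher hybridization group are given beside the main results.

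Most cytosolic ribosomal protein genes were slightly lower after weaning. In limma, with Benjamini-Hochberg adjustment over 8630 genes that reached log2 6 on at least 3 arrays, 28 of the 45 members tested were lower after weaning and 3 were higher at an adjusted p below 0.05, while 14 passed in neither direction. The background was 41.8% lower and 31.1% higher among all genes tested. The median difference of the members was -0.19 on the log2 scale, which is 87.4% of the earlier level, against -0.07 over all genes tested. In 16 members every array after weaning lay below every array before (21.7% of all genes), in 1 every array lay above (15.5% of all genes), and in 28 the stages overlapped. Within the 10 arrays of the higher hybridization group 10 members were lower and 3 higher with a median of -0.19, where 32.0% of all genes were lower and 27.4% higher. The share of members lower there was thus below that of all genes, although their median stayed below that of all genes (-0.03). With that group as a block 26 were lower and 3 higher, where 35.5% of all genes were lower and 30.8% higher.

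**Figure D1:**
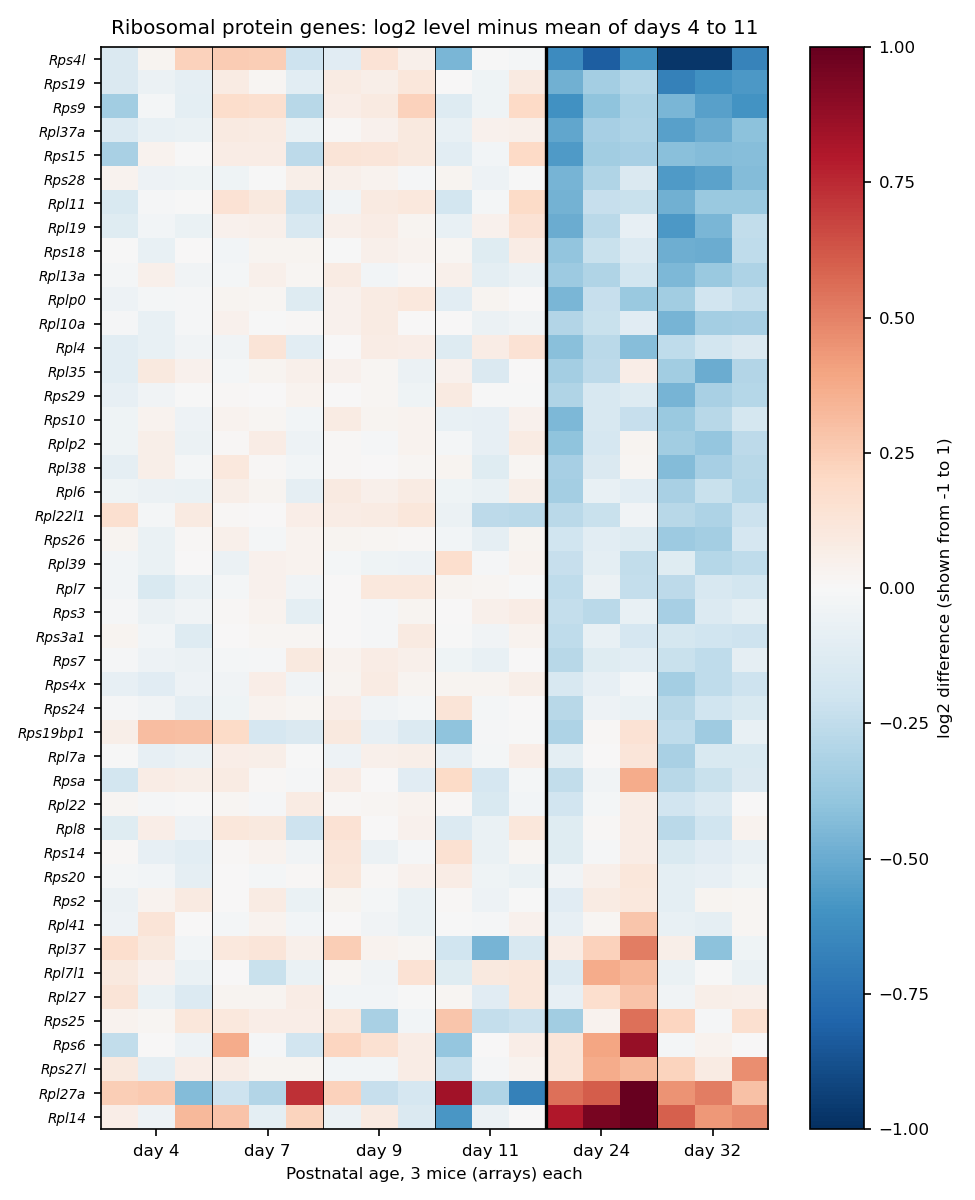
Log2 level of the 45 members tested minus the mean of days 4 to 11, with one row per gene and one column per mouse in order of age; colour runs from -1 (blue) to 1 (red) and the thick line marks weaning. Columns right of the line are blue in most rows, while Rpl14 and Rpl27a at the bottom are red, and day 24 replicate 1 is the bluest of its age.

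Most of the falls were in brightly measured genes. Of the 45 members, 33 had a mean log2 signal of 11 or above, a brightness reached by 201 genes in all (2.33%). In these 33 genes 25 were lower and 0 higher, with a median difference of -0.25 and a range of -0.49 to 0.01. Of the 168 other genes of that brightness, 71 were lower and 58 higher, with a median of -0.03. The 12 members below 11 had 3 lower, 3 higher and a median of 0.07. Signal depends on the probes as well as on the transcript, so the brightness of a probe set does not rank the genes by abundance. The brightest of these probe sets, that of Rps29 at a mean of 12.82, lay below the highest value of the table (13.71).

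**Figure D2:**
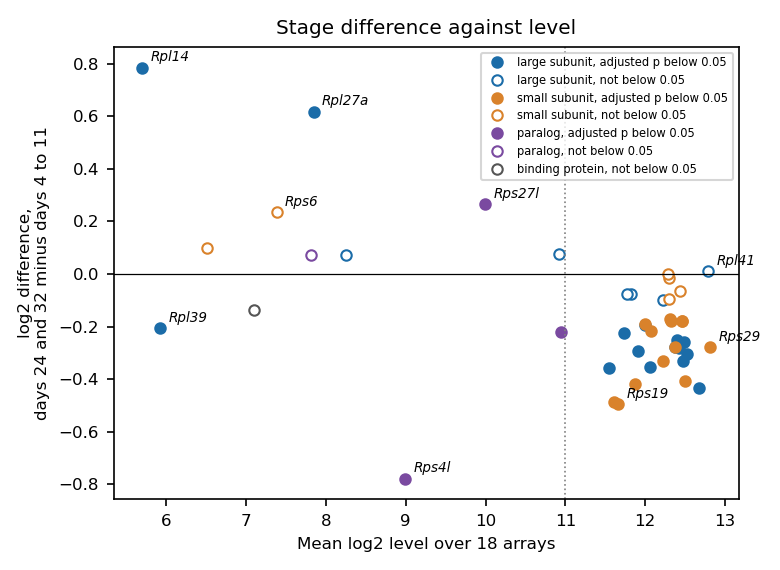
Log2 difference of days 24 and 32 minus days 4 to 11 (vertical) against the mean log2 level over 18 arrays (horizontal) for the 45 members tested, with filled points for an adjusted p below 0.05 and the dotted line at 11. No filled point to the right of the dotted line lies above 0, and the 3 filled points above 0 (Rpl14, Rpl27a and Rps27l) lie to its left.

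Both subunits took part. Of the 21 core genes of the large subunit tested, 13 were lower and 2 higher, with a median of -0.22, and of the 19 of the small subunit 13 were lower and 0 higher, with a median of -0.18. The difference between the subunits was not tested. On each array the median level of the 40 core genes tested was 11.89, 12.04 and 12.16 (lowest, median and highest) after weaning and 12.20, 12.23 and 12.30 before, so the stages did not overlap. It averaged 12.04 ± 0.11 after weaning (SD, n = 6) and 12.25 ± 0.04 before (SD, n = 12), and 12.22 ± 0.02 in the 4 arrays before weaning of the higher hybridization group.

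Over the 6 ages the mean core median moved by less than 0.1 through suckling and was lower at both later ages. It was 12.21 ± 0.01 at day 4, 12.28 ± 0.04 at day 7, 12.26 ± 0.04 at day 9, 12.25 ± 0.04 at day 11, 12.10 ± 0.10 at day 24 and 11.98 ± 0.11 at day 32 (SD, n = 3 each). From day 4 to day 7 the mean was greater in 38 of the 40 core genes, with a median step of 0.05, and 20 of the 40 had their highest age mean at day 9. The lowest age mean was at day 32 in 29 of the 40. These counts were not made over all genes, and genes read on the same arrays are not independent observations. Within an age the median SD between mice was 0.08 for core members and 0.18 over all genes tested, most of which were dimmer. No SD was taken over other genes of the same brightness. Among core members with a mean below 11 it ran from 0.07 (Rpl39) to 0.48 (Rpl27a). After the age means were taken out, pairs of core genes correlated across the 18 arrays with a median r of 0.45 (88.1% of pairs above 0), against 0.05 over all genes; the pairs share arrays and normalization, and this is a description.

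**Figure D3:**
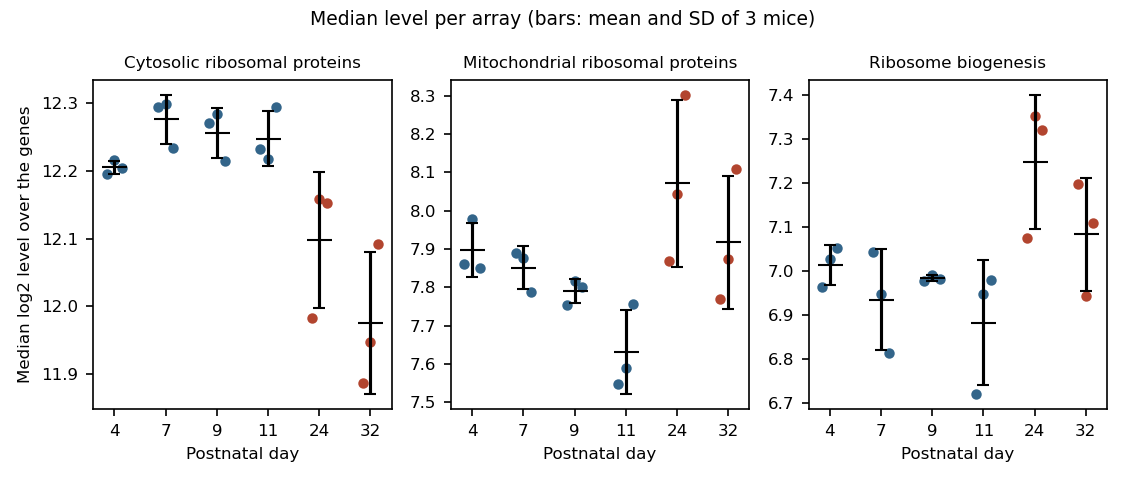
Median log2 level over the genes of 3 lists on each array by postnatal day, with points for mice (red after weaning, blue during suckling) and bars for the mean and SD of 3; the vertical axes differ between panels. The core cytosolic genes are lowest at days 24 and 32 (means 12.10 and 11.98), while the mitochondrial ribosomal proteins and the biogenesis factors have their lowest mean at day 11 (7.63 and 6.88) and their highest at day 24 (8.07 and 7.25).

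During suckling no member passed the test between day 11 and day 4. In limma 0 of 45 were higher and 0 lower (1.34% and 1.54% of all genes), and the median difference was 0.01. An unadjusted p below 0.05 was reached by 3 of the 45, against 1618 of the 8630 genes tested. With array weights Rpl22l1 was lower (-0.32, adjusted p = 0.0112), where 6.52% of all genes were lower. Across the interval that holds weaning, day 24 minus day 11, 16 members were lower and 5 higher (32.3% and 26.9% of all genes), with a median of -0.15. The 3 largest falls among these were those of Rps4l (-0.52, adjusted p = 0.00726), Rps9 (-0.45, adjusted p = 0.00798) and Rps15 (-0.44, adjusted p = 0.00518), which with the hybridization group as a block were -0.26, -0.28 and -0.29 with adjusted p of 0.0896, 0.0810 and 0.0539. This count rested on few arrays: 7 were lower without day 24 replicate 1, 10 without day 11 replicate 3, 7 with the hybridization group as a block (29.6% of all genes) and 0 of the 45 within the higher group (20.6% of all genes), which has 1 array at day 11. The higher count was 3 without day 11 replicate 1 or without day 24 replicate 3 (22.9% and 23.3% of all genes). Of all genes 29.8% were lower without day 24 replicate 1, and 29.8% without day 11 replicate 3. Between day 32 and day 24, 1 member was lower, Rpl14, and 0 higher (6.22% and 6.11% of all genes). An unadjusted p below 0.05 was reached there by 6 members, against 2398 of the 8630 genes tested. The step was negative in 35 of the 40 core genes, with a median of -0.11, and in 4430 of the 8630 genes, with a median of -0.01. The F test over all 6 ages called 26 of the 45 members (68.3% of all genes), and 12 with the hybridization group as a block (63.4% of all genes).

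On the small subunit the core genes with the largest falls among those whose stages did not overlap were Rps19, Rps15, Rps28 and Rps18. Rps19, needed to mature the 18S ribosomal RNA and mutated in human Diamond-Blackfan anaemia, had log2 levels of 11.34, 11.48 and 11.54 at day 24 and 11.15, 11.21 and 11.25 at day 32, against a lowest of 11.67, a median of 11.83 and a highest of 11.94 in suckling mice. All 6 later arrays lay below all 12 earlier ones, and day 32 lay below day 24. The difference was -0.49 ± 0.06 (SE), a 1.41-fold fall, with an adjusted p of 2.27e-07 in limma, and -0.43 within the higher hybridization group (adjusted p = 0.00371). Rps15, which sits near the decoding site, was 11.45, 11.60 and 11.68 (lowest, median, highest) after weaning and 11.69, 12.07 and 12.21 before, a difference of -0.42 ± 0.07 (adjusted p = 6.36e-05). Its stages were separated by a narrow margin, and within the higher hybridization group the adjusted p was 0.0821. Rps28 was 12.07, 12.18 and 12.49 after weaning and 12.58, 12.63 and 12.69 before, a difference of -0.41 ± 0.06 (adjusted p = 4.76e-06). Rps18 was 11.83, 12.01 and 12.20 after weaning and 12.21, 12.35 and 12.40 before, a difference of -0.33 ± 0.06 (adjusted p = 7.89e-05). In both the highest later array was at day 24. Rps9, whose fall between day 11 and day 24 was among the largest, read 11.17, 11.27 and 11.46 after weaning and 11.42, 11.79 and 12.001 before, with 5 of 6 later arrays below every earlier one. Its stage difference of -0.49 ± 0.08 (adjusted p = 3.63e-05) had an adjusted p of 0.0515 within the higher hybridization group.

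On the large subunit Rpl37a, Rpl11 and Rpl13a fell most among the genes whose stages did not overlap. Rpl37a had log2 levels of 12.28, 12.37 and 12.51 after weaning and 12.68, 12.84 and 12.92 before, so that every later array lay below every earlier one. The difference was -0.43 ± 0.06 (adjusted p = 1.72e-06 in limma), a 1.35-fold fall. Rpl11, which with 5S RNA binds and inhibits the p53 regulator Mdm2 when ribosome assembly fails, was 11.19, 11.29 and 11.45 after weaning and 11.45, 11.66 and 11.86 before. Its difference was -0.36 ± 0.07 (adjusted p = 0.000259), and its stages nearly touched: within the higher hybridization group the difference was -0.20 with an adjusted p of 0.135. Rpl13a, which in human monocytes also leaves the ribosome to silence inflammatory transcripts, was 12.13, 12.24 and 12.40 after weaning and 12.49, 12.58 and 12.66 before, a difference of -0.33 ± 0.05 (adjusted p = 2.79e-05). Of the genes whose start windows with CTTTC are shown above, Rpl38, which in mice is needed for the translation of Hox mRNAs, was 12.05, 12.18 and 12.50 after weaning and 12.36, 12.49 and 12.58 before, with 5 of 6 later arrays below every earlier one and a difference of -0.25 ± 0.06 (adjusted p = 0.00135). Rps26, at the mRNA exit of the small subunit, was 11.77, 11.96 and 12.04 after weaning and 12.05, 12.16 and 12.19 before, a difference of -0.22 ± 0.05 (adjusted p = 0.00136).

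**Figure D4:**
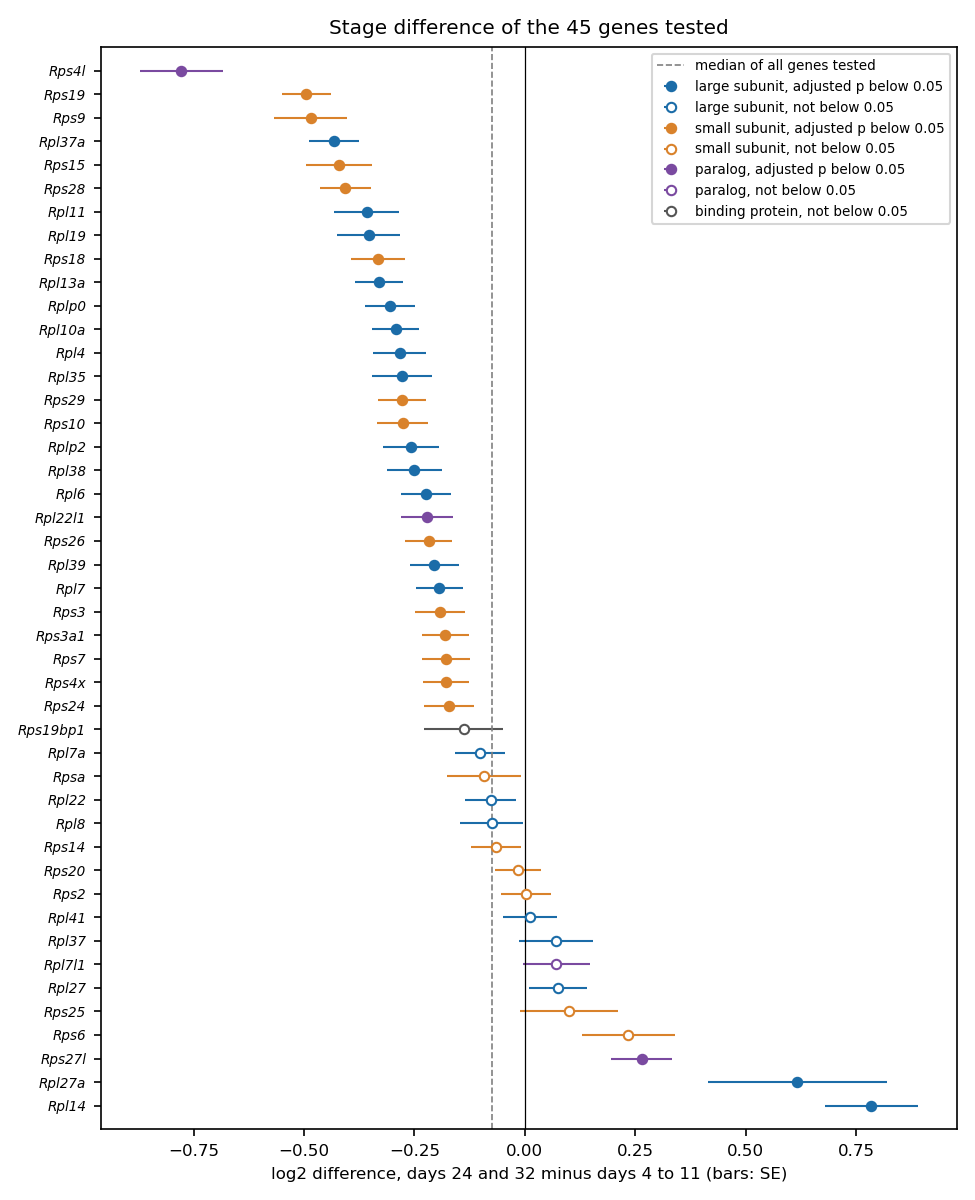
Log2 difference of days 24 and 32 minus days 4 to 11 for the 45 members tested, ordered by size, with SE bars and filled points for an adjusted p below 0.05; the dashed line is the median of all genes tested (-0.07). The differences run from -0.78 for Rps4l at the top to 0.78 for Rpl14 at the bottom, and both subunits are spread along the falls.

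The stalk proteins and the laminin receptor gave a mixed picture. Rplp0, the base of the stalk and a common reference gene in PCR, had log2 levels of 12.17, 12.33 and 12.43 after weaning and 12.50, 12.63 and 12.73 before, with no overlap. It fell by 0.31 ± 0.06 on the log2 scale (adjusted p = 9.40e-05), a 1.24-fold difference, and the adjusted p was 0.0943 within the higher hybridization group. Rplp2, its acidic partner, was 12.17, 12.27 and 12.61 after weaning and 12.49, 12.57 and 12.66 before, with 1 day 24 array among the earlier ones. Its difference was -0.26 ± 0.06 (adjusted p = 0.00156, and 0.101 within the higher hybridization group). Rpsa, which serves in the small subunit and as a laminin receptor at the cell surface, was 12.05, 12.14 and 12.69 after weaning and 12.14, 12.33 and 12.52 before, and its difference of -0.09 ± 0.08 did not pass (adjusted p = 0.323). The highest value of Rpsa was that of day 24 replicate 3, without which the difference was -0.18 (adjusted p = 0.0392).

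Some members showed little difference between the stages. Rps2 was 12.17, 12.30 and 12.38 after weaning and 12.21, 12.28 and 12.37 before, a difference of 0.00 ± 0.06 with an adjusted p of 0.982. Rpl41, the smallest protein of the ribosome, was 12.70, 12.76 and 13.06 after weaning and 12.72, 12.78 and 12.92 before, a difference of 0.01 ± 0.06 (adjusted p = 0.872), and a second probe set of it gave -0.16. Rps25, which in human and yeast cells is needed for translation from some viral internal entry sites, was 6.13, 6.57 and 7.03 after weaning and 6.15, 6.52 and 6.75 before, a difference of 0.10 ± 0.11 (adjusted p = 0.426). In all 3 the later arrays spanned the whole range of the earlier ones. Rps29, whose probe set was the brightest, in contrast read 12.44, 12.62 and 12.78 after weaning and 12.83, 12.91 and 13.00 before, a difference of -0.28 ± 0.05 (adjusted p = 0.000154).

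Of the core genes, Rpl14 and Rpl27a were higher after weaning. Rpl14 had log2 levels of 6.24, 6.39 and 6.88 at day 24 and 6.04, 5.87 and 5.91 at day 32, against 4.86, 5.41 and 5.76 (lowest, median, highest) in suckling mice. All later arrays lay above all earlier ones, and day 24 above day 32. The difference was 0.78 ± 0.11 (adjusted p = 2.57e-06 in limma), a 1.72-fold rise, and 1.28 for day 24 minus day 11 (adjusted p = 5.63e-06). Between day 24 and day 32 Rpl14 fell by 0.56 (adjusted p = 0.0404), but it missed the threshold without any 1 of the 3 day 32 mice (adjusted p of 0.0673, 0.126 and 0.0803 without replicates 1, 2 and 3), without day 24 replicate 3 (0.210) and without day 9 replicate 1 or 2 (0.0511 each). It was dim and reached log2 6 on 4 arrays, all after weaning, so it was tested because it was higher there. Rpl39 likewise reached that level on 4 arrays, all before weaning, and its fall (-0.21, adjusted p = 0.00279) is of the same kind. Without both genes 27 of 43 members were lower and 2 higher. Rpl27a was 7.93, 8.17 and 8.95 after weaning and 6.96, 7.45 and 8.48 before, with an SD of 0.35 after and 0.47 before, and the stages overlapped. Its difference of 0.62 ± 0.20 (adjusted p = 0.0109) was 0.01 within the higher hybridization group (adjusted p = 0.973) and -0.05 with that group as a block.

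Rps6, the phosphoprotein of the small subunit that S6 kinases modify downstream of mTOR, had its highest age mean at day 24. Its log2 levels were 6.92, 7.31 and 7.37 at day 11, 7.42, 7.70 and 8.17 at day 24 and 7.29, 7.34 and 7.31 at day 32. The day 24 arrays were above those of day 11, and the day 32 arrays fell back among the earlier ones. The difference of day 24 minus day 11 was 0.57 (adjusted p = 0.00851), with an adjusted p of 0.0538 without day 11 replicate 1 and 0.0665 without day 24 replicate 3. The difference of day 32 minus day 24 was -0.46 and did not pass (adjusted p = 0.0898), but passed without day 24 replicate 1 (-0.63, adjusted p = 0.0289) and with cyclic loess normalization (adjusted p = 0.0496). The stage difference of 0.23 ± 0.10 had an adjusted p of 0.0522, and it passed without day 7 replicate 1 (adjusted p = 0.0205), day 11 replicate 2 (0.0484), day 11 replicate 3 (0.0411) or day 24 replicate 1 (0.00976), and within the higher hybridization group (0.47, adjusted p = 0.0185). Rpl37 also rose from day 11 to day 24 (0.55, adjusted p = 0.00210) with a stage difference of 0.07 (adjusted p = 0.455).

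**Figure D5:**
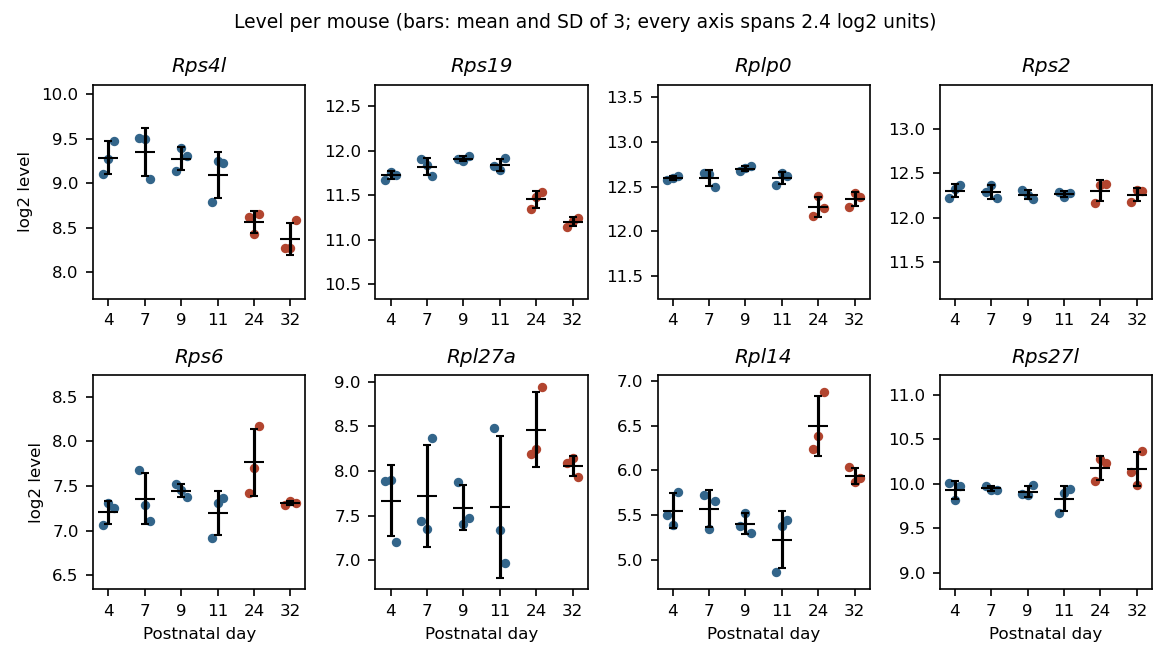
Log2 level of 8 members by postnatal day, with points for single mice (red after weaning, blue during suckling) and bars for the mean and SD of 3; every vertical axis spans the same 2.4 log2 units. Rps4l and Rps19 are lowest at day 32, Rps2 is level, Rps6 and Rpl14 have their highest age mean at day 24, and Rpl27a varies most between mice of one age.

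The paralogs behaved one by one. Rps4l, a mouse copy of the X-linked Rps4x, showed the largest fall of all members. Its log2 levels were 8.63, 8.43 and 8.65 at day 24 and 8.28, 8.28 and 8.59 at day 32, against 8.79, 9.26 and 9.51 (lowest, median, highest) before. All later arrays lay below the earlier ones, the nearest of which was day 11 replicate 1. The difference was -0.78 ± 0.09, a 1.71-fold fall (adjusted p = 6.68e-07), and -0.54 within the higher hybridization group (adjusted p = 0.00211). Rps4x itself fell by 0.18 ± 0.05 (adjusted p = 0.00475), with 4 of 6 later arrays below every earlier one. Probes of such near-identical copies may share signal, and the difference between Rps4l and Rps4x was not tested.

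Rps27l, a target of p53 in human and mouse cells that can take the place of Rps27 in the ribosome, was higher after weaning. Its log2 levels were 9.99, 10.18 and 10.37 after weaning and 9.67, 9.93 and 10.01 before, so the stages overlapped slightly. The difference was 0.26 ± 0.07 (adjusted p = 0.00229) and all 3 of its passing probe sets were above 0 (0.26 to 0.45). Its counterpart Rps27 did not reach log2 6 on enough arrays, with levels of 4.29 to 4.54 after weaning and 4.49 to 4.81 before. Rpl22l1, which in mice rises when its partner Rpl22 is lost, was 10.71, 10.77 and 10.98 after weaning and 10.75, 11.06 and 11.18 before. Rpl22l1 fell by 0.22 ± 0.06 (adjusted p = 0.00246), day 11 being already near the later level (10.82, against 11.11 at day 9). Its adjusted p was 0.0615 within the higher hybridization group and 0.0601 without the day 32 arrays. Rpl22 differed by -0.08 (adjusted p = 0.236) on its brightest probe set, but by -0.29 (adjusted p = 0.000154) under the mean of its probe sets. Rpl7l1 (0.07, adjusted p = 0.409, but 0.15 with 0.0429 without day 24 replicate 1) and Rps19bp1, a nucleolar protein that binds Rps19 and is no part of the ribosome (-0.14, adjusted p = 0.173), passed in neither direction.

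Beside Rps27, a further 5 members did not pass the filter and were not tested. Rpl12 averaged 5.04 ± 0.43 after weaning and 4.71 ± 0.34 before. The other 4 stayed below the median of the arrays (3.88 to 3.97) on every array: Rps16, the muscle form Rpl3l, the testis form Rpl39l and the pseudogene Rps15a-ps6, with means of 2.57, 2.44, 2.60 and 2.46 over the 18 arrays. Rps16 is a core protein of the ribosome, and its single-gene probe set gave no usable level here.

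Different probe sets of a gene mostly gave the same direction. Of the 107 probe sets 82 passed the filter, with 51 lower and 6 higher, against 5205 lower and 4059 higher of 12909 over all genes. Probe sets ending in _x_at had 22 lower and 2 higher of 36, and those in _a_at 21 lower and 2 higher of 27, both with a median of -0.22. Of 16 plain _at sets 6 were lower and 2 higher, with a median of -0.07, against -0.06 over all probe sets. Most plain sets were dim: of the 4 at 11 or above 3 were lower and 0 higher. Of the 51 probe sets taken for the genes, 12 ended in _x_at, 18 in _a_at and 2 in _s_at. Signal shared with other gene copies was not tested. Among 20 members with several passing probe sets, 15 had all of them below 0, 2 all above 0 and 3 of both signs. The spread was widest in Rpl13a, from -0.81 to -0.08, and Rpl22, from -0.76 to -0.04, followed by Rps10, from -0.49 to 0.01, and Rpl27, from -0.04 to 0.39. The size of a fall therefore depended on the probe set in these genes, and for Rps10 and Rpl27 the sign did too. The probe set taken for Rps10 was -0.28 (adjusted p = 0.000357, and 0.0780 within the higher hybridization group) and that for Rpl27 0.07 (adjusted p = 0.312).

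Genes that work with the ribosome were read for comparison. Of 20 tested genes of elongation and other mRNAs with a terminal oligopyrimidine tract, 12 were lower and 1 higher after weaning, with a median of -0.22 (all genes: 41.8% lower, 31.1% higher, median -0.07). The largest of these were Eif3k (-0.57, adjusted p = 1.01e-05), Pfdn5 (-0.57, adjusted p = 5.74e-06), Cct4 (-0.47, adjusted p = 3.67e-06) and Eif4b, a cofactor of the initiation helicase (-0.47, adjusted p = 9.29e-06). Fau, whose product is processed to a small-subunit protein, was lower too (-0.30, adjusted p = 0.0145), but its difference was -0.04 within the higher hybridization group (adjusted p = 0.817).

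In the main fit genes of ribosome assembly were more often higher than lower after weaning. Of 38 ribosome biogenesis genes tested, 18 were higher and 4 lower, with a median of 0.16 (all genes: 31.1% higher, 41.8% lower, median -0.07). Noc4l (0.63), Dkc1 (0.59), the pseudouridine synthase of ribosomal RNA, and Nop56 (0.59), a core protein of box C/D particles, were higher (Dkc1 by 0.18 with an adjusted p of 0.0541 under the mean of its probe sets), while Ncl, the abundant nucleolar protein nucleolin, was lower (-0.65 ± 0.08, adjusted p = 1.54e-06). Of 12 genes of RNA polymerase I and its factors, which transcribe ribosomal RNA, 3 were lower and 1 higher (median 0.03). Both shares lay below those of all genes. Ubtf (-0.55, adjusted p = 7.41e-07), Znrd1 (-0.38) and Polr2f (-0.35) were lower and Taf1c (0.31) higher. Within the higher hybridization group Znrd1 was -0.33 (adjusted p = 0.0659) and Polr2f -0.21 (adjusted p = 0.264), Polr2f was -0.24 with the block (adjusted p = 0.105) and -0.30 with the Xist covariate (adjusted p = 0.0567), and without the day 32 arrays Znrd1 was -0.12 (adjusted p = 0.242) and Polr2f -0.23 (adjusted p = 0.118). Without the day 24 arrays Taf1c was 0.21 (adjusted p = 0.0555). Of 25 initiation factors 5 were higher and 7 lower (median 0.03), again both below the shares of all genes. Among them Eif2s2 (1.17 ± 0.08, adjusted p = 5.12e-10), Eif6 (0.70), which keeps the large subunit from joining too early, and Eif1a (0.52) were higher and Eif2s3x (-0.56) lower. Eif2s3x had an adjusted p of 0.0667 within the higher hybridization group, of 0.175 with plain probe sets, and a difference of -0.08 (adjusted p = 0.521) with the level of Xist, an RNA of female cells, as a covariate.

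The mitochondrial ribosome is built from other proteins, and its genes too were more often higher than lower. Of 76 mitochondrial ribosomal protein genes tested, 37 were higher and 8 lower after weaning, with a median of 0.18 (all genes: 31.1% higher, 41.8% lower). Among them Mrpl21 (0.64), Mrps27 (0.61) and Mrpl38 (0.61) were higher and Mrpl23 (-0.91, adjusted p = 8.73e-10) lower. The median of the 76 genes on each array overlapped between the stages, at 7.77 to 8.30 after weaning and 7.55 to 7.98 before. During suckling all 76 had a negative difference for day 11 minus day 4, against 4762 of the 8630 genes tested. Their median was -0.26 (all genes -0.03), and 2 were lower in limma (1.54% of all genes). Of 23 genes that set the rate of translation through growth signals, 6 were higher and 7 lower (median -0.01), both below the shares of all genes. In this list Mycn, a Myc family activator of ribosome genes, fell to a mean of 4.44 ± 0.41 after weaning (SD, n = 6), against 6.73 ± 0.19 before (SD, n = 12), a 4.90-fold difference (adjusted p = 3.05e-11); its level in suckling mice is what took it past the filter. Deptor, an inhibitor of mTOR, averaged 8.23 ± 0.23 after weaning and 7.08 ± 0.27 before, a 2.22-fold rise (adjusted p = 1.65e-08). Tsc1 (-1.08, adjusted p = 2.60e-08) and Akt1s1 (-0.53, adjusted p = 9.57e-05), both inhibitors in the same pathway, were lower, but Akt1s1 was -0.25 within the higher hybridization group (adjusted p = 0.0782) and -0.26 with it as a block (adjusted p = 0.0273).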

How the data were processed

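RNA of 18 mouse ilea was hybridized to Affymetrix arrays, and the authors deposited RMA log2 values per probe set, per the submitters' processing notes; no source used here gives the version, its settings or probe coordinates. The members and gene lists were chosen with earlier results of these data known. Probe sets with 1 annotated symbol were kept (34958 of 35890 listed), and a gene was represented by its probe set with the highest mean among those at log2 6 or above on at least 3 arrays (8630 of 18193 genes). Levels were fitted in limma 3.58.1 (R 4.3.3) with age as a factor of 6 levels and 12 residual degrees of freedom, the stage contrast being the mean of the day 24 and 32 means minus that of the day 4, 7, 9 and 11 means, and p-values were adjusted by Benjamini-Hochberg over the 8630 genes at 0.05. The code was tested on simulated data. Array numbers limit precision, to 3 mice an age.

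Members named individually were the 8 largest falls and rises among called members whose stages did not overlap, the 3 largest changes each way in the other contrasts, the 3 brightest, the 3 core members with the smallest F, all paralogs, pseudogenes and binding proteins, the stalk genes, Rpsa and Rps6, the 4 genes whose probe sets differed most, and up to 4 called genes of each other list; further members named for a count (Rpl39, Rpl37, Rpl38, Rps26, Rps4x, Rps27, Rps16 and Rpl12) were chosen after their values were seen. Sequences came from the RefSeq start windows of GRCm38.p6. Alternatives covered filters, probe sets, normalization, model options, array control groups and single mice. No 2 arrays were identical.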

Additional observations from a re-analysis of the deposited data

How the results depend on the processing

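No paired analysis was possible because replicate numbers were given in accession order and the ages share fewer than 2 numbers in the sample titles (1 number stands at both day 7 and day 9, and the labels do not say what it marks). The log2 stage difference of the members kept a negative median under all settings run (main -0.19; -0.10 after cyclic loess), and at least 19 members were lower (main 28) except within the higher hybridization group, where 10 were. The higher count (main 3, 31.1% of all genes) was 5 after cyclic loess (36%) and 5 without the day 32 arrays (27.3%), a setting added after seeing the data. For day 24 minus day 11 the lower count (main 16) was 0 within the higher hybridization group, 7 with it as a block, 8 with median centring, 8 with the level of Xist, an RNA of female cells, as a covariate, and 6 with the arrays of both ages alone; the higher count (main 5) was 2 within the higher group, 3 with both ages alone and 3 with the filter at log2 8. For day 32 minus day 24 the lower count (main 1) was 0 without a filter (1 higher), with both ages alone and within the higher group, 3 after quantile normalization, and 2 with the mean of probe sets, plain probe sets, median centring, cyclic loess, array weights, or a trended and robust prior. Of all genes 6.22% were lower for day 32 minus day 24 in the main fit, 3.48% without a filter and 2.5% with both ages alone. The share was 8.77% after quantile normalization and 5.55% to 7.36% in the settings with 2 lower. For day 11 minus day 4, 1 member was lower with array weights (main 0), where 6.52% of all genes were lower (main 1.54%). The F test called 12 members with the block (63.4% of all genes) and 9 with the Xist covariate (57.8%), against 26 in the main fit (68.3%). For day 24 minus day 11 the share of all genes lower was 32.3% in the main fit and 29.6% with the block. It was 29.8% with median centring, 30.7% with the covariate and 28.9% with both ages alone. The share higher was 26.9% in the main fit, 22.4% with both ages alone and 29.7% with the filter at log2 8. Fewer arrays or residual degrees of freedom enter the fits within the higher group, with both ages alone and with the block or covariate; the cause of the other changes was not tested.

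Reversed values were those of Rpl22 for day 24 minus day 11 with the mean of probe sets (-0.29), Rpl27a for the stage with the block (-0.0505) and Rpl27a for day 24 minus day 11 within the higher group (-0.0238).

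Among stage counts of the other lists, elongation factors and other oligopyrimidine mRNAs had 0 higher with the block, the Xist covariate or within the higher group, 7 lower with the covariate and within the higher group, and a median of -0.12 after cyclic loess. Initiation factors had 8 higher with quantile normalization, cyclic loess or the block, and 4 lower within the higher group. Biogenesis genes had 1 higher, 1 lower and a median of -0.0286 with the filter at log2 8, where fewer genes are tested, 2 lower and a median of 0.29 with the block, and 1 lower and 0.29 within the higher group. Polymerase I genes had 2 higher with the mean of probe sets, plain probe sets, quantile normalization, array weights, the block, the covariate or within the higher group (1 lower there), 3 higher without a filter or with cyclic loess, and 0 higher and 1 lower with the filter at log2 8. Growth control genes had 3 higher and 3 lower with that filter and 3 higher within the higher group. Mitochondrial genes had 18 higher with that filter and 13 lower with array weights, 5 with the block and 3 within the higher group. With that filter 34.1% of all genes were higher and 42.3% lower by stage, with array weights 32.1% and 43.8%, and with the block 30.8% and 35.5%. The shares were 27.4% and 32% within the higher group and 26.2% and 37.3% with the covariate. They were 36% and 37.8% after cyclic loess and 35% and 38.6% after quantile normalization.

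Leaving out 1 mouse at a time, the members' stage counts were 28 to 29 lower and 3 to 5 higher (5 without day 24 replicate 1), with medians of -0.21 to -0.18. For day 24 minus day 11 they were 7 to 18 lower and 3 to 6 higher, with medians of -0.18 to -0.08. For day 32 minus day 24 they were 0 to 4 lower (4 without day 24 replicate 1), and the F test called 19 to 27. Of all genes, 40.3% to 42.3% were lower and 29.3% to 31.7% higher by stage, and the F test called 63.6% to 70.3%. For day 24 minus day 11 the shares were 29.8% to 32.9% lower and 22.9% to 27.4% higher, and for day 32 minus day 24 3.28% to 6.89% lower. The ranges were 4 to 8 higher for initiation factors, 0 to 1 higher for the elongation list, 1 to 2 higher for polymerase I, 29 to 40 higher and 8 to 12 lower for mitochondrial genes, and 15 to 18 higher and 4 to 6 lower for biogenesis. Of 4096 values of named genes under the alternatives, 3938 kept their direction and side of the threshold.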
